A study of Mus musculus with 8 samples.

Results

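Gene expression was compared between CD4 T cells of Smad3 knockout mice (Smad3-/-, Smad3KO) and wild type mice (WT). The comparison used 4 of the 8 Affymetrix arrays of the series, 1 per genotype without TGF-b and 1 per genotype with TGF-b at 2 ng/ml, and each Smad3KO array was set against the WT array of the same treatment. A gene was called higher or lower in Smad3KO when both treatment pairs differed by at least 1.5-fold in the same direction. Of 9350 genes tested, 166 (1.78%) were called, 53 (0.567%) higher and 113 (1.21%) lower. This rule is a threshold of size on single arrays and not a test.

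Mice of both genotypes carry the strain label C57BL/6J. The Smad3 knockout is labelled without a restriction to a cell type, whereas the Smad2 knockout of the same series (Smad2KO, Smad2del/del), used beside it here, is conditional and limited to T cells. In every group, splenic cells had been sorted as CD4+CD25-CD44loCD62Lhi, the surface profile of naive T cells, to a purity above 98%. All cultures received plate-bound antibody to CD3e and soluble antibody to CD28 (1 ug/ml each), IL-2 (10 ng/ml) and blocking antibodies to IFN-g and IL-4 (10 ug/ml each) and were collected at 24 h. The remaining genotype, Smad2del/delSmad3+/-, was not used, since its arrays stood apart, with rank correlations to the WT and Smad3KO arrays of 0.665 to 0.686 against 0.907 to 0.927 among those 4.

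Smad3 is a transcription factor that the activated TGF-b receptor phosphorylates. It then binds Smad4, enters the nucleus and, with partner factors, turns target genes up or down. In CD4 T cells TGF-b restrains Th1 cells, which are defined by the transcription factor T-bet and the cytokine IFN-g, and in the presence of IL-2 it induces Foxp3, the factor that defines regulatory T cells. Smad2, the closest relative of Smad3, was intact in the Smad3KO cells.

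Signals below are array intensities scaled to the same 2% trimmed mean. Values under a floor of 32.5, the median of all scaled signals, were set to that floor for ratios, and a fold whose dimmer array was under the floor is written as at least that fold. A gene was tested where the highest of its 4 signals reached 65. The identity of the cells was checked on markers. All 8 CD4 T cell markers with a probe set, among them Cd4 and Cd3e, were above the floor on the 4 arrays, with sums of 29800 to 30680 on WT and 29650 to 30010 on Smad3KO arrays. B cell markers were under the floor on all 4 arrays for 7 of 9, and so were 7 of 12 myeloid, 5 of 6 NK cell and 2 of 3 gamma-delta T cell markers. The other 2 B cell markers were Cd22, above the floor only on the TGF-b treated WT array (48.8), and the immunoglobulin gene Ighm, at 2019 and 1531 on WT arrays and 2753 and 1575 on Smad3KO arrays. Summed signals of Cd8a and Cd8b1 were 161 and 108 on WT arrays and 83.5 and 68.2 on Smad3KO arrays, dim in both. In RNA of mixed cells, fewer cells of a type and less RNA per cell cannot be told apart. Xist was bright, and Eif2s3y and Kdm5d were under the floor, on all 4 arrays. Uty, listed with them as sex-linked, read 36.0 on the WT array without TGF-b, just above the floor, and was under it on the rest.

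The targeted gene did not read lower on the arrays labelled Smad3KO. The brightest Smad3 probe set gave 149 and 549 on WT arrays (here and below the first value is without TGF-b and the second with it) and 614 and 730.2 on Smad3KO arrays. The next one gave 75.4 and 168 on WT arrays and 286 and 198 on Smad3KO arrays. The dimmest probe set gave 25.05 and 103 on WT arrays and 43.2 and 48.7 on Smad3KO arrays, so that it was lower only with TGF-b. Which part of the gene these mice lack, and where the probes lie relative to it, is not stated in the labels. A probe outside the deleted part checks nothing, so the labels were not checked by this gene, and every direction below rests on the arrays labelled Smad3KO. Smad2 was close to equal, with 1068 and 1031 on WT arrays and 993.9 and 959.8 on Smad3KO arrays.

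The genes that stood farthest apart were few and of diverse function. Among them, Kcnj11, Slc1a5 and Rpgrip1 fell, and Gbp2b and Ifng rose, each by a similar amount in the cultures without and with TGF-b. Other genes, such as Casp4 (mean log2 ratio -1.58) and Ctsw (-2.55), both taken up below, also differed more than Rpgrip1. Kcnj11, on chromosome 7, encodes the pore subunit of the ATP-sensitive potassium channel. Its signals were 1038 and 1731 on WT arrays, 887 and 1327 on Smad2KO arrays and 140 and 220.2 on Smad3KO arrays. Both Smad3KO arrays were thus far below the other 4, by 7.41-fold without and 7.86-fold with TGF-b against WT. The limma estimate was -2.93 on the log2 scale (SE 0.110, Benjamini-Hochberg adjusted p = 6.27e-08), from a fit of genotype and treatment to the 6 WT, Smad2KO and Smad3KO arrays. Slc1a5, also on chromosome 7, is the glutamine transporter ASCT2. It read 2441 and 1751 on WT arrays, 2696 and 2034 on Smad2KO arrays and 703 and 496 on Smad3KO arrays, with no overlap between Smad3KO and the others. It was 3.47-fold and 3.53-fold lower than in WT (log2 estimate -1.81, SE 0.0912, limma Benjamini-Hochberg adjusted p = 9.46e-07). A second, dimmer Slc1a5 probe set differed by -1.04 without TGF-b and by -0.31 with it. Rpgrip1, a scaffold protein of cilia known from photoreceptors, lies on chromosome 14. Its signals were 2584 and 3119 on WT arrays, 5130 and 5022 on Smad2KO arrays and 1046 and 1102 on Smad3KO arrays, so that Smad3KO was the lowest and Smad2KO the highest group. It fell by 1.403 on the log2 scale (SE 0.0929, limma Benjamini-Hochberg adjusted p = 1.39e-05). Its 3 other probe sets were too dim to be tested, and with all probe sets averaged Rpgrip1 differed by -0.39 and was no longer called. Kcnj11, which has 1 other and dim probe set, gave -1.47 when averaged and kept its call.

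**Figure D1:**
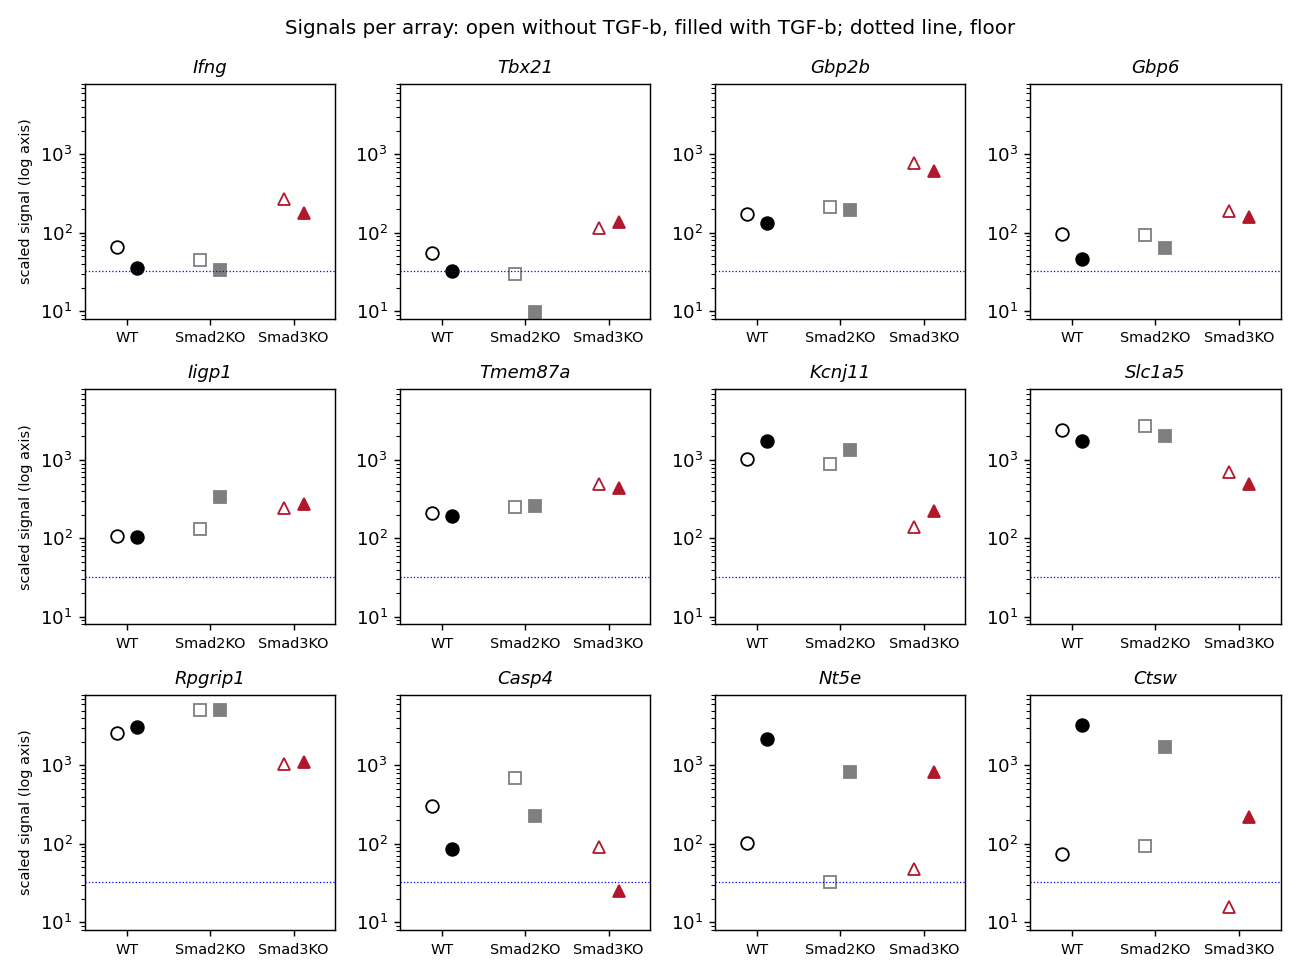
Scaled signals per array (log axis) of 12 genes called by the rule, in WT (circles), Smad2KO (squares) and Smad3KO (triangles), open without and filled with TGF-b; the dotted line is the floor of 32.5. Kcnj11, Slc1a5 and Rpgrip1 are lower on both Smad3KO arrays than on any other, and Ifng, Tbx21, Gbp2b and Gbp6 are higher. Iigp1 overlaps with Smad2KO. Nt5e differs more between treatments than between genotypes, and Ctsw differs between WT and Smad3KO far more with TGF-b than without.

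limma called 21 genes higher and 21 lower (0.225% each) at an adjusted p of 0.05, and 1033 genes had an unadjusted p under 0.05. Of these calls, 13 higher and 14 lower genes also met the rule. No label ties the cultures to separate animals, and each genotype and treatment had 1 array. The residual spread behind these p-values, with 2 degrees of freedom, is how far the treatment difference varied among WT, Smad2KO and Smad3KO. It is not a spread between replicate cultures. A gene whose response to TGF-b differed by genotype therefore had a large SE, such as Ctsw (0.858). The counts depended on single arrays. They were 13 higher and 13 lower without the WT array without TGF-b, 2 and 3 without the WT array with TGF-b, 113 and 157 without the Smad3KO array without TGF-b, and 18 and 31 without the Smad3KO array with TGF-b. Kcnj11, Slc1a5, Rpgrip1 and Gbp2b were the only genes of the 42 that stayed past the threshold in each of these 4 fits. Without the WT array with TGF-b, only these 4 of the 42 were still called. With no treatment block in the fit no gene was called in either direction, at 360 genes with an unadjusted p under 0.05, and with only the 4 WT and Smad3KO arrays 98 and 122 were called.

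**Figure D2:**
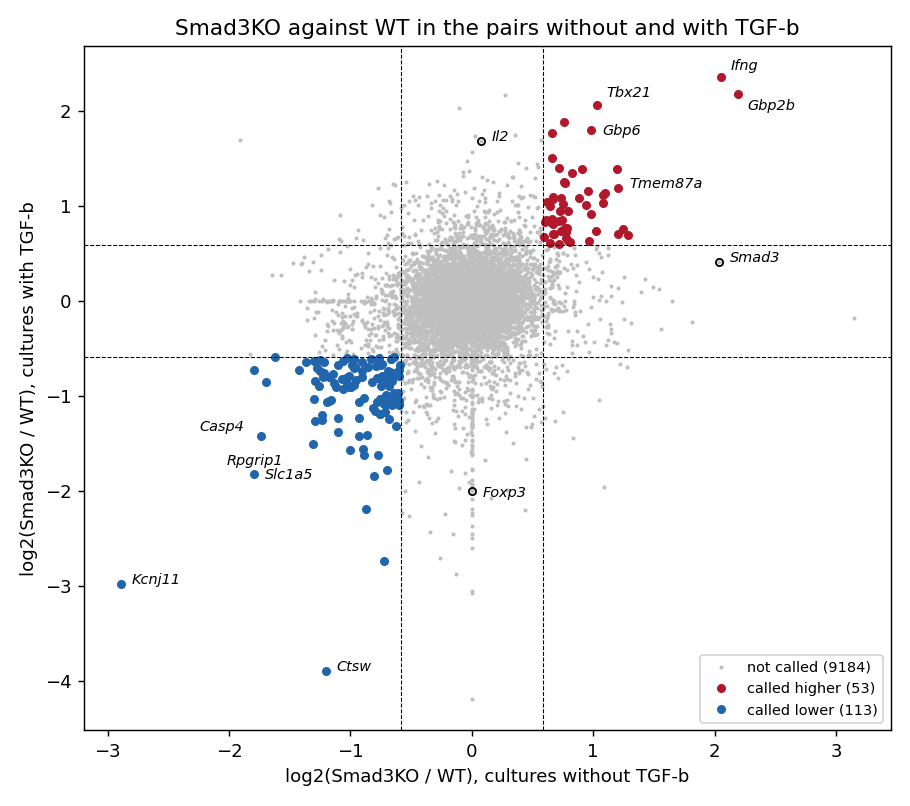
Log2 ratio of Smad3KO to WT for each of 9350 tested genes in the cultures without TGF-b (horizontal) and with TGF-b (vertical); dashed lines mark 1.5-fold, red and blue points are the 53 and 113 called genes, and open circles are named genes that were not called. Kcnj11 and Slc1a5 lie low on both axes, Ifng and Gbp2b high on both, whereas Foxp3 and Il2 differ with TGF-b alone and Smad3 without it.

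The called genes were mostly modest in size and many were dim. The robust SD of all log2 ratios was 0.237 in the pair without TGF-b and 0.247 in the pair with it, against the 0.585 that corresponds to 1.5-fold. Single pairs passed 1.5-fold for 224 genes higher and 420 lower without TGF-b, and for 382 and 551 with TGF-b. At 2-fold in both pairs, 8 genes were higher and 15 lower. The highest signal was under 130, 4 times the floor, for 22 of the 53 higher and 63 of the 113 lower genes, although such dim genes made up 1278 of the 9350 tested. All 4 signals were above the floor for 44 higher and 70 lower genes, and the other folds are lower bounds in at least 1 pair. The pairs were within 1.5-fold of each other for 143 of the 166 genes and over 2-fold apart for 10. Under quantile normalization the counts were 68 higher and 86 lower, so that 55.8% of calls were lower in place of 68.1%. Just inside the threshold, Hs3st2 was 1.51-fold and 1.60-fold higher and Yipf2 1.56-fold and 1.51-fold lower. Just outside it, Gfi1 was 1.49-fold and 1.70-fold higher and Dedd2 1.56-fold and 1.498-fold lower.

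Genes of the Th1 programme were among those higher in Smad3KO. Of 12 tested Th1 genes 3 were called higher (Ifng, Tbx21 and Xcl1) and 0 lower, against 0.567% and 1.21% of all genes tested. Over the 12, the median of mean log2 ratios was 0.445, against 0.006 over all genes tested. Ifng encodes the cytokine IFN-g. Its signals were 65.3 and 35.1 on WT arrays, 45.4 and 33.9 on Smad2KO arrays and 271 and 180 on Smad3KO arrays. Both Smad3KO arrays were above all other arrays, and WT with TGF-b was just above the floor. Ifng rose by 2.21 in log2 units (SE 0.282, limma Benjamini-Hochberg adjusted p = 0.00546), and the adjusted p was 0.06 without the WT array without TGF-b and 0.279 without the WT array with TGF-b. Tbx21, which encodes T-bet, read 55.7 and 32.8 on WT arrays, 29.8 and 9.81 on Smad2KO arrays and 114 and 138 on Smad3KO arrays. It was 2.04-fold and 4.19-fold higher than in WT with no overlap, but did not pass limma (log2 1.55, SE 0.360, Benjamini-Hochberg adjusted p = 0.0978). Xcl1, a chemokine, read 127 and 442 on WT arrays, 348 and 478 on Smad2KO arrays and 292 and 718 on Smad3KO arrays, and its groups overlapped (limma Benjamini-Hochberg adjusted p = 0.342). The other 9 tested Th1 genes were not called. Stat4, the IL-12 signal transducer, gave 0.69 and 0.44 without and with TGF-b, Eomes 0.42 and 0.00, and Cxcr3, a Th1 chemokine receptor, -0.04 and -1.403.

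Some genes that IFN-g is known to induce were also called higher. Of 10 tested interferon-inducible GTPases, a family of cell-autonomous defence proteins, 3 were called higher (Gbp2b, Gbp6 and Iigp1) and 0 lower. Over all genes tested these shares were 0.567% and 1.21%. Of the 10 GTPases, 8 were above WT in both pairs, against 27.6% of all genes tested, with a median of 0.79. This family was listed after its values had been seen, and its members are similar in sequence, so that probes of one may read another. Gbp2b, on chromosome 3 and also among the genes known to differ between mouse strains, read 172 and 134 on WT arrays, 213 and 198 on Smad2KO arrays and 785 and 607 on Smad3KO arrays. Both Smad3KO arrays were above all others, by 4.57-fold and 4.53-fold against WT. The rise was 2.19 on the log2 scale (SE 0.149, limma Benjamini-Hochberg adjusted p = 1.39e-05). Gbp6 read 95.4 and 45.9 on WT arrays, 92.9 and 65.0 on Smad2KO arrays and 188 and 160.1 on Smad3KO arrays, again without overlap (log2 1.39, SE 0.265, limma Benjamini-Hochberg adjusted p = 0.048). A second bright Gbp6 probe set gave log2 ratios of 0.39 and 1.29, under 1.5-fold in the pair without TGF-b. The adjusted p for Gbp6 was 0.124 and 0.445 without the WT array without and with TGF-b and 0.223 without the Smad3KO array with TGF-b. Iigp1 read 106 and 104 on WT arrays, 131 and 335 on Smad2KO arrays and 243 and 272 on Smad3KO arrays. Its Smad2KO array with TGF-b was the highest of the 6, and it did not pass limma (Benjamini-Hochberg adjusted p = 0.174). Gbp2, Gbp3 and Gbp7 were also above WT in both pairs, by 0.51 and 1.11, 0.52 and 1.30, and 0.54 and 0.99, and none of the 3 was called.

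Beyond these GTPases few interferon-responsive genes were called. Of 8 further tested IFN-g targets 1 was called higher, against 0.567% of all genes tested, and 6 were above WT in both pairs. The called gene was Il15ra, a subunit of the IL-15 receptor (0.67 and 1.07). It did not pass limma (Benjamini-Hochberg adjusted p = 0.406), and its other bright probe set gave only 0.29 and 0.06. The Smad2KO array without TGF-b (213) was above both Smad3KO arrays (179 and 122.5). Irf1, the transcription factor that acts early after IFN-g, gave 0.64 and 0.41 (limma Benjamini-Hochberg adjusted p = 0.0978), and Socs1, a feedback inhibitor, 0.48 and -0.88. Of 15 interferon-stimulated genes, a list centred on the antiviral response, 0 were called in either direction, against 1.78% of all genes tested. The median of these 15 was 0.21. Among them Ifit2 gave -0.15 and 0.14 and Stat2 -0.41 and -0.61. None of 12 genes of MHC class I and antigen processing was called, against the same 1.78%. Of those 12, 8 were above WT in both pairs, with a median of 0.22, and the peptide transporter Tap1 gave 0.60 and 0.20. Over all genes tested, 27.6% were above WT in both pairs.

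The promoters of Ifng, Tbx21 and Gbp2b, the 3 genes with the largest increases of the sets above, are shown because these genes were higher together and are known to respond to IFN-g, STAT factors or T-bet. Each line gives the 250 bases before the gene's start in RefSeq (GRCm38.p6), in the direction of transcription. They lie at chr10:118440796-118441045 on the plus strand for Ifng, chr11:97115332-97115581 on the minus strand for Tbx21 and chr3:142594597-142594846 on the plus strand for Gbp2b. Capitals mark TTCNNNGAA, the spaced palindrome that STAT factors bind, and CAGAC, the core of Smad-binding sequences, searched on both strands.
Ifng: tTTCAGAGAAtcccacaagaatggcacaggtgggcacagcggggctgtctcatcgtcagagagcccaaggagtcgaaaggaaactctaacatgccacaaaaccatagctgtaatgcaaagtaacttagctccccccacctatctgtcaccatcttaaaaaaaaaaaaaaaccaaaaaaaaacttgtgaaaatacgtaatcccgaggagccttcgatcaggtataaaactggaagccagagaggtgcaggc
Tbx21: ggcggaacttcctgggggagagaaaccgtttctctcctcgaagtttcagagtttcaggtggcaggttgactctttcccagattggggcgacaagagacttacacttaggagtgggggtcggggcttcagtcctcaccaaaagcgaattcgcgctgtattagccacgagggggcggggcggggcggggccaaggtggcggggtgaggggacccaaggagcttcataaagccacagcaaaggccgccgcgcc
Gbp2b: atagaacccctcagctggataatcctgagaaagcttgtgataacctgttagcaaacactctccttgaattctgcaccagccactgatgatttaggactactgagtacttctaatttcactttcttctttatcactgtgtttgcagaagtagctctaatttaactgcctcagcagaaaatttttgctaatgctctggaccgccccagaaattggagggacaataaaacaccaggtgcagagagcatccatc
The Ifng window held 1 TTCNNNGAA at its far end and 0 CAGAC, and the Tbx21 and Gbp2b windows held 0 of each. In windows of this length, CAGAC was found for 42.1% of 27025 RefSeq promoters, for 40.3% of tested genes with a promoter entry (7697), for 21 of 43 called higher (48.8%) and for 45 of 89 called lower (50.6%). TTCNNNGAA was found for 7.18% of all promoters, 5.98% of tested genes, 4 of 43 called higher (9.3%) and 6 of 89 called lower (6.74%). A match of letters is a description of the window and does not show a bound site.

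Regulatory T cell genes were mixed, with Nt5e and Nrp1 lower in Smad3KO. Of 16 tested genes 0 were called higher and 2 lower, against 0.567% and 1.21% of all genes tested, and the median was -0.22. Nt5e encodes CD73, the surface enzyme that makes adenosine from AMP. It read 103 and 2154 on WT arrays, 32.8 and 815 on Smad2KO arrays and 47.8 and 828 on Smad3KO arrays. Smad3KO was below WT within each treatment, Smad2KO was as low, and the difference between treatments was larger than that between genotypes. Nt5e fell by 1.24 on the log2 scale (SE 0.168, limma Benjamini-Hochberg adjusted p = 0.00705), and the adjusted p was 0.129 and 0.419 without the WT array without and with TGF-b. A second Nt5e probe set gave -0.25 and -0.96. Nrp1, a co-receptor found on thymic regulatory T cells, was read on its brightest probe set. It gave 423 and 346 on WT arrays, 276 and 419 on Smad2KO arrays and 252 and 185 on Smad3KO arrays. On 3 other bright probe sets Smad3KO was below WT in both pairs. Nrp1 did not pass limma (Benjamini-Hochberg adjusted p = 0.244). Foxp3 was under the floor in both cultures without TGF-b. With TGF-b it read 402 in WT, 288 in Smad2KO and 100.2 in Smad3KO, a single pair that is 4.01-fold lower in Smad3KO. Socs2, a cytokine feedback inhibitor, was likewise 3323 in WT and 848 in Smad3KO with TGF-b and close to equal without it (122 and 114). Ctla4, Icos and Tnfrsf4 were within 1.5-fold of WT in both pairs.
The Nt5e promoter is shown for the same search, with CAGAC or its reverse complement in capitals, at chr9:88327359-88327608 on the plus strand. It held 2 CAGAC on the minus strand, printed as GTCTG, and 0 TTCNNNGAA.
Nt5e: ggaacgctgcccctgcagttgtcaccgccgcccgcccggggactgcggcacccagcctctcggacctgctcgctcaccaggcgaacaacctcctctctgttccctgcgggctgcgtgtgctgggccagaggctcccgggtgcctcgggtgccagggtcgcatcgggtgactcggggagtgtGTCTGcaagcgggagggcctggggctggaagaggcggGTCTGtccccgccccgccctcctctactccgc

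**Figure D3:**
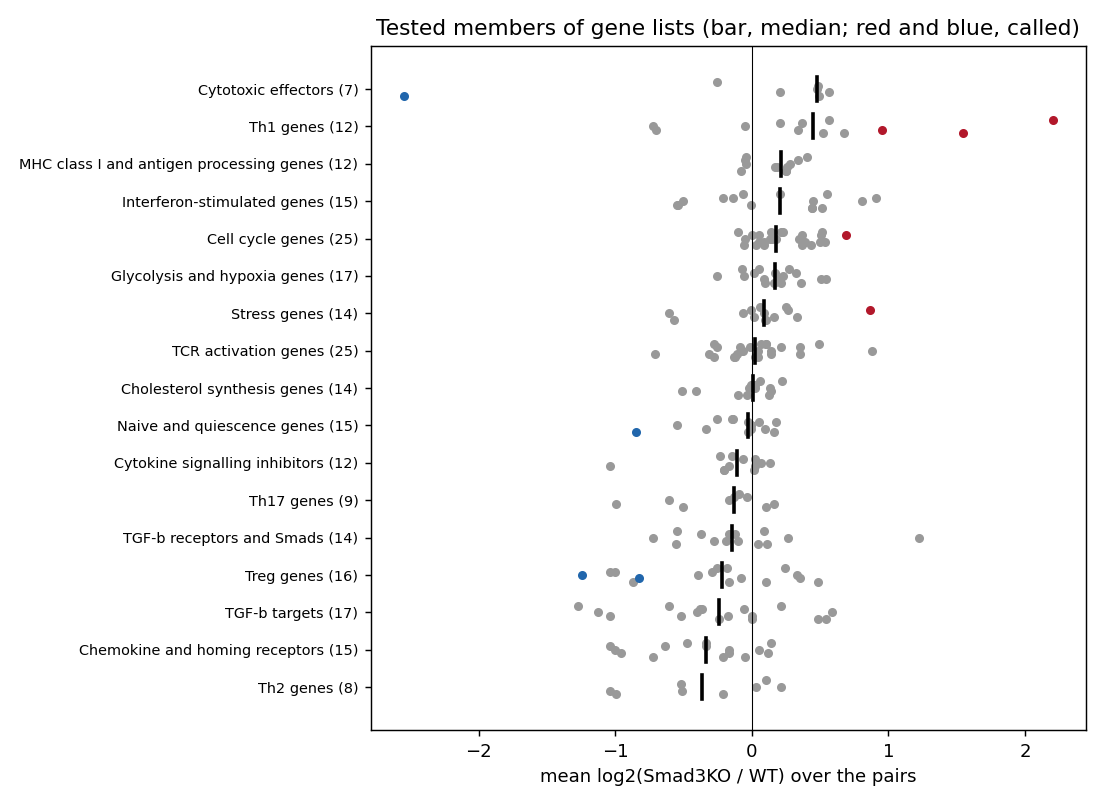
Mean log2 ratio of Smad3KO to WT over both pairs for the tested members of 17 gene lists (number tested in brackets); the bar is the list's median, and red and blue points are members called higher and lower. Th1 genes hold 3 called members, Ifng, Tbx21 and Xcl1, and Treg genes 2, Nt5e and Nrp1; the medians lie between -0.36 and 0.48.

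None of the listed direct targets of TGF-b signalling was called. Of 17 tested targets 0 were called in either direction by the rule or by limma, against 1.78% of all genes tested by the rule. At that share a list of this size would mostly hold no call. Below WT in both pairs were 6 targets and above it 3, against 25.7% and 27.6% of all genes tested. The median log2 ratio was 0.00 without TGF-b and -0.35 with it. Differences within the pair with TGF-b rest on 2 single arrays. Spsb1, an adaptor of ubiquitin ligases, read 472 in WT and 118 in Smad3KO there, Ccr8, a chemokine receptor, 2384 and 563, and Ldlrad4, an inhibitor of the pathway, 208 and 43.5. Smad7, the inhibitory Smad, read 180 in WT and 181 in Smad3KO without TGF-b and 395 and 309 with it. Id3, a repressor of helix-loop-helix factors, went the other way with TGF-b, at 475 in WT and 1050 in Smad3KO. The 14 tested receptors and Smads had 0 calls and a median of -0.15. Among them Tgfbr1, the type I receptor, read 485 and 3915 on WT arrays and 457 and 1924 on Smad3KO arrays.

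The lists of other T helper programmes held no calls. Of 8 tested Th2 genes and 9 tested Th17 genes 0 were called, against 1.78% of all genes tested. Lists this short would mostly hold no call at that share. Their medians were -0.36 and -0.13. Maf, a transcription factor on both lists, was under the floor without TGF-b and read 2638 in WT and 665 in Smad3KO with it. Of 25 genes of T cell receptor activation 0 were called in either direction and the median was 0.02. Il2, the growth factor that TGF-b represses, read 5067 in WT and 5329 in Smad3KO without TGF-b and 539 and 1729 with it, so that the difference lay in the pair with TGF-b alone. Myc gave -0.04 and -0.14, Egr2 0.06 and 0.03 and Nr4a1 -0.15 and -0.09. Chemokine and homing receptors (15 tested), inhibitors of cytokine signalling (12), glycolysis and hypoxia genes (17) and cholesterol synthesis genes (14) also had 0 calls by the rule. Glycolysis genes were above WT in both pairs for 13 of 17, with a median of 0.17. Sc5d, an enzyme of cholesterol synthesis, fell by 0.51 on the log2 scale (SE 0.0953, limma Benjamini-Hochberg adjusted p = 0.0475), and its call was lost without any of 3 arrays, the 2 WT arrays and the Smad3KO array with TGF-b (adjusted p of 0.178, 0.445 and 0.136).

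Few cell cycle genes were called, all of them higher. Of 25 tested 1 was called by the rule (Ccnb2), against 1.78% of all genes tested. Above WT in both pairs were 16 and below it 3, against 27.6% and 25.7% of all genes tested, with a median of 0.18. Mki67, the proliferation marker Ki-67, read 1859 and 1676 on WT arrays, 1579 and 1370 on Smad2KO arrays and 2455 and 2581 on Smad3KO arrays. Top2a, the mitotic topoisomerase, read 3072 and 2637 on WT arrays, 2783 and 2309 on Smad2KO arrays and 4003 and 4087 on Smad3KO arrays. Both genes were above all other arrays on both Smad3KO arrays. Each rose by 0.51 on the log2 scale, with limma Benjamini-Hochberg adjusted p of 0.0472 and 0.0443. These calls were lost without either WT array (lowest adjusted p 0.17) and without the Smad3KO array with TGF-b (0.161 for both). Replication genes such as Mcm2, Mcm3 and Mcm6 were within 0.15 of WT on the log2 scale in both pairs.

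Cytotoxic effector genes pointed in different directions. Of 7 tested, 3 were above WT in both pairs and 2 below it, against 27.6% and 25.7% of all genes tested. Their median of mean log2 ratios was 0.475, against 0.006 over all genes tested. By the rule 1 was called lower and 0 higher, against 1.21% and 0.567% of all genes tested. The lower gene was Ctsw, which encodes the lysosomal protease cathepsin W. Ctsw read 74.9 and 3269 on WT arrays, 94.3 and 1713 on Smad2KO arrays and 15.6 and 219 on Smad3KO arrays, at least 2.30-fold and 14.9-fold lower in Smad3KO. Its difference was far larger with TGF-b than without, and it did not pass limma (Benjamini-Hochberg adjusted p = 0.501). Gzmb, the protease granzyme B, read 114 and 1.21 on WT arrays, 210 and 31.8 on Smad2KO arrays and 206 and 35.0 on Smad3KO arrays, so that Smad2KO and Smad3KO were alike above WT without TGF-b. A group of called genes shared with Ctsw a larger difference in the cultures with TGF-b. Named after their values were seen, these were Lpxn, an adaptor of focal adhesions (364 and 2018 on WT arrays, 220 and 304 on Smad3KO arrays), Arsb, a lysosomal sulfatase (376 and 984, 205 and 215), Lgals3, the lectin galectin-3 (56.8 and 406, 11.04 and 113) and Aqp3, a water and glycerol channel (64.8 and 1469, 40.0 and 429). The other 2 bright probe sets of Aqp3 gave log2 ratios of -2.91 and -2.41 with TGF-b and of 0 without it, where all signals were set to the floor. On the probe set that stands for it, each gene was lower than WT in both pairs, and none passed limma (Benjamini-Hochberg adjusted p from 0.0807 to 0.530). In the other direction, Mcoln3, a lysosomal cation channel, read 139 and 42.1 on WT arrays and 236 and 156 on Smad3KO arrays, and Ms4a4c 272 and 49.4 and 431 and 169.

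Among the remaining genes with the largest differences, most of those called higher were dim, and Tmem87a, Fbxo17 and Niban1 were brighter. Tmem87a, a protein of the Golgi, read 212 and 193 on WT arrays, 252 and 262 on Smad2KO arrays and 490.2 and 441 on Smad3KO arrays. It was 2.31-fold and 2.29-fold higher with no overlap (log2 1.20, SE 0.144, limma Benjamini-Hochberg adjusted p = 0.00416). Its call was lost without either WT array (adjusted p of 0.0692 and 0.279). Fbxo17, a substrate receptor of ubiquitin ligases, read 135 and 103 on WT arrays and 263 and 229 on Smad3KO arrays (log2 1.06, SE 0.183, adjusted p = 0.0348). Niban1, a stress-induced protein, read 162 and 256 on WT arrays, 277 and 332 on Smad2KO arrays and 321 and 484 on Smad3KO arrays (log2 0.95, SE 0.153, adjusted p = 0.0246), so that Smad2KO lay between. Fbxo17 and Niban1 lost their limma calls without either WT array and without the Smad3KO array with TGF-b. Dgkq, H1f4, Micu3, Fbll1, Fads6, Ppp2r3a and Efcab7 completed the 15 highest, with no signal above 178 on any WT or Smad3KO array and limma adjusted p from 0.0725 to 0.296. Supt16, a histone chaperone subunit, and Tpd52, a vesicle protein, were brighter and rose by 0.72 and 0.77 (limma Benjamini-Hochberg adjusted p of 0.00705 and 0.0129). Supt16 read 1626 and 1560 on WT arrays, 699 and 736 on Smad2KO arrays and 2783 and 2466 on Smad3KO arrays, with Smad2KO on the opposite side of WT. Tpd52 read 371 and 444 on WT arrays, 767 and 832 on Smad2KO arrays and 632 and 758 on Smad3KO arrays, and here Smad2KO was the highest. Both lost their calls without either WT array.

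Among the genes called lower, Ctse and Mndal were bright. Ctse, the aspartic protease cathepsin E, read 1450 and 1610 on WT arrays, 899 and 934 on Smad2KO arrays and 825 and 735 on Smad3KO arrays (log2 -0.97, SE 0.108, limma Benjamini-Hochberg adjusted p = 0.00226), and the adjusted p was 0.279 without the WT array with TGF-b. A second Ctse probe set was higher in Smad3KO in both pairs, by 0.69 and 0.61, so that the direction for this gene is not settled. Mndal, a member of the interferon-inducible p200 family whose genes are near copies of each other, read 1523 and 623 on WT arrays, 1845 and 1029 on Smad2KO arrays and 747 and 342 on Smad3KO arrays. It fell by 0.95 on the log2 scale (SE 0.120, limma Benjamini-Hochberg adjusted p = 0.00546), and both of its probe sets were lower. The call was lost without either WT array (adjusted p of 0.134 and 0.191). Cux1, a homeodomain transcription factor, read 402 and 1297 on WT arrays, 230 and 1024 on Smad2KO arrays and 200.4 and 437 on Smad3KO arrays. Smo, the signal transducer of the hedgehog pathway, read 104 and 109 on WT arrays and 42.6 and 45.2 on Smad3KO arrays, and Zbtb20, a transcriptional repressor, 74.5 and 169 and 25.4 and 80.6. None of these 3 passed limma (Benjamini-Hochberg adjusted p from 0.0728 to 0.104). AI506816 read 1510 and 1187 on WT arrays, 14.5 and 3.19 on Smad2KO arrays and 667 and 573 on Smad3KO arrays, so that its lowest group by far was Smad2KO. Rab37, a small GTPase of secretory granules, and Csdc2, Grip2, Zfp420 and C920006O11Rik completed the 15 lowest, with no signal above 153 on any of these arrays. Pik3ip1, a quiescence gene that inhibits PI3 kinase, was called lower at 53.0 and 119 on WT arrays and 30.1 and 60.0 on Smad3KO arrays, the only one of 15 naive and quiescence genes called. Hspa1b, a heat shock protein, was the only call among 14 stress genes, at 50.4 and 24.4 on WT arrays and 87.1 and 62.5 on Smad3KO arrays. Over all genes tested 1.78% were called.

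Probe sets of one gene did not always give the same answer. Of the 166 called genes, 64 had a single probe set, and 48 had another one bright enough to be tested. For 9 of these 48, 4 higher and 5 lower, another probe set also passed 1.5-fold the same way in both pairs. These were Cd24a, Igsf23, Iigp1 and Tpd52 among the higher genes and Cux1, Mndal, Nrp1, Pik3ip1 and Sh3bp5 among the lower. For 1 gene, Ctse, another probe set passed in the opposite direction. For the other 38 none passed, and in 24 of those 38 at least 1 other probe set had the same sign in both pairs. As a background, 0.714% of all 17089 bright probe sets with 1 symbol were called higher and 1.30% lower. Of the 67 other bright probe sets, 30 showed less than 50% of the mean log2 ratio of the chosen one or the opposite sign, and 7 had the opposite sign. Kcnj11, Casp4, Ifng, Gbp2b and Tbx21 had no other bright probe set, so that each rests on 1. With the probe sets of each gene averaged, dim ones included, 9 of the named genes that stayed bright enough to be tested were no longer called by the rule. These were Rpgrip1 (-0.39), Nt5e (-0.61), Nrp1 (-0.94), Cux1 (-0.82), Smo (-0.76), Adpgk (-0.60), Zbtb20 (-0.38), Ctse (-0.16) and Tpd52 (0.39), each given as the mean log2 ratio.

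**Figure D4:**
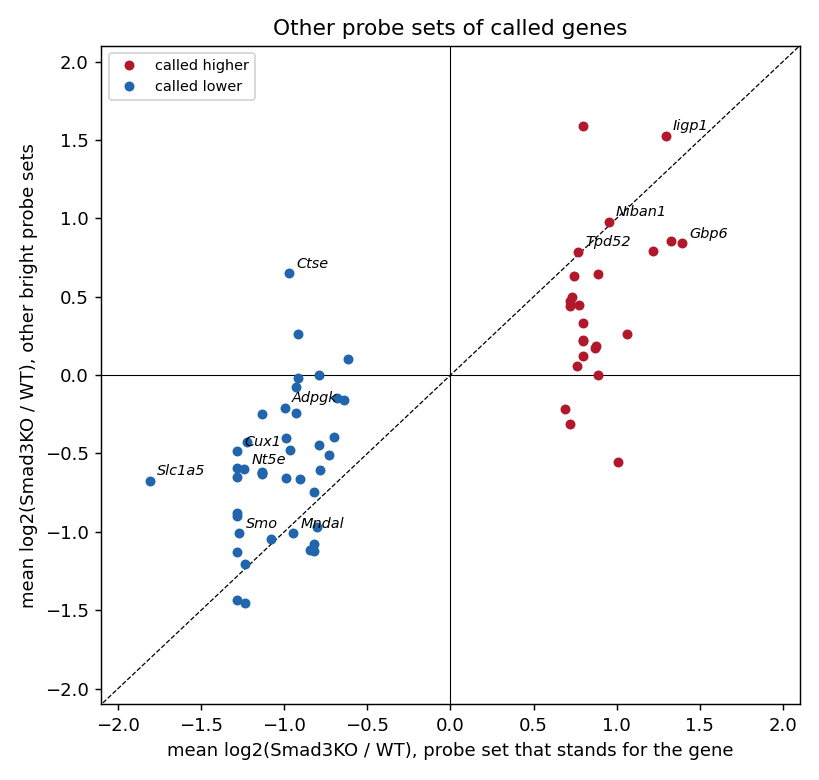
Mean log2 ratio of Smad3KO to WT for the probe set that stands for each called gene (horizontal) and for 67 other bright probe sets of the same genes (vertical); the dashed line marks equal values. Points on the dashed line, such as Tpd52, Niban1 and Mndal, give the same value from both probe sets, most points lie nearer to 0 than the line, and Ctse lies on the opposite side of 0.

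Genes that flank a targeted locus can keep alleles of the strain of the embryonic stem cells used to make the knockout, and their signals can then differ for that reason. Smad3 is on chromosome 9, where 523 genes were tested. Of these 19 (3.63%) were called, 5 higher and 14 lower, against 147 of 8813 (1.67%) on the other chromosomes and 1.78% over all genes tested. The share was the highest of all chromosomes, with chromosome 6 next at 2.73%. Within chromosome 9, the share of calls and the size of differences varied differently with distance from Smad3. The median absolute mean log2 ratio was 0.158 in the 200 nearest tested genes and 0.133 in the 200 next to those. It was 0.124 over all genes tested. In gene order, 2 of the 50 nearest tested genes were called, 7 of the 200 nearest (3.5%), 100 on each side, and 9 of the 200 next to those, again 100 on each side (4.5%). The 7 near calls were Fam219b, Arid3b, Adpgk, C920006O11Rik and Nt5e, which were lower, and Ccnb2 and Dixdc1, which were higher. Adpgk, a glucokinase that uses ADP, was 18 tested genes from Smad3 and read 222 and 254 on WT arrays, 195 and 195 on Smad2KO arrays and 117 and 122 on Smad3KO arrays. Both Smad3KO arrays were the lowest (log2 -0.997, SE 0.176, limma Benjamini-Hochberg adjusted p = 0.0372), but a second Adpgk probe set gave -0.13 and -0.28. The call was also lost without either WT array (adjusted p of 0.17 and 0.445). Fam219b read 150 and 183 on WT arrays and 76.6 and 113 on Smad3KO arrays, and Arid3b, a DNA-binding protein, 128.9 and 107 and 68.8 and 61.7. On the probe set that stands for it, Dixdc1 was under the floor on both WT arrays. It read 55.1 and 77.5 there on Smad3KO arrays, at least 1.69-fold and 2.38-fold higher. Another bright Dixdc1 probe set gave -1.12 and 0.01. With a floor at the 25th percentile of signals that other probe set stood for the gene, at a mean log2 ratio of -0.55.

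**Figure D5:**
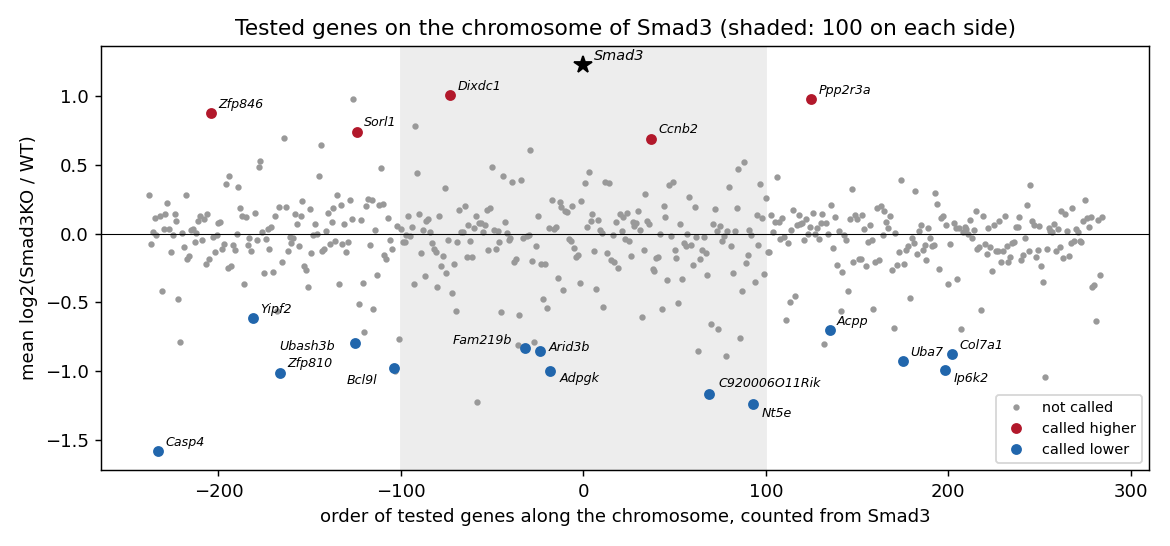
Mean log2 ratio of Smad3KO to WT for the 523 tested genes of chromosome 9 in gene order, counted from Smad3 (star); the shaded band holds 100 genes on each side. The 19 called genes, 14 lower (blue) and 5 higher (red), are spread along the chromosome, with Casp4 233 genes away.

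The share on chromosome 9 was less distinct against the other knockout. Between Smad3KO and Smad2KO, which use the same Smad3KO arrays, 2.87% of genes on chromosome 9 and 2.41% elsewhere passed the same rule. Between Smad2KO and WT, which use the same WT arrays, the shares were 1.91% and 1.87%. A list of 4 genes known to differ between C57BL/6J and strains from which embryonic stem cells are often taken had 3 tested members. Of these, 2 were called by the rule and by limma, Gbp2b higher and Casp4 lower, against 1.78% of all genes tested by the rule. The list was chosen with earlier results of these data known, so that its count is a description only. Casp4, the inflammatory caspase-11, whose transcript is reduced in some such strains, lies on chromosome 9 far from Smad3. It read 301 and 87.2 on WT arrays, 688 and 224 on Smad2KO arrays and 90.1 and 24.9 on Smad3KO arrays, 3.34-fold lower without and at least 2.68-fold lower with TGF-b. It fell by 1.58 on the log2 scale (SE 0.192, limma Benjamini-Hochberg adjusted p = 0.00416), and the adjusted p was 0.124 and 0.199 without the WT array without and with TGF-b. Nnt, a mitochondrial enzyme with a deletion in C57BL/6J, read 531 and 462 on WT arrays and 356 and 465 on Smad3KO arrays and was not called. Ifi202b was under the floor on all 4 arrays. Whether alleles of another strain bear on any of these differences was not tested.

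Fewer than 50% of the called genes also differed between Smad3KO and Smad2KO. Of the 53 genes higher than WT, 19 were also at least 1.5-fold higher than Smad2KO in both pairs, against 138 of 9350 genes (1.48%) that met this rule over all. Of the 113 lower genes, 24 were also lower than Smad2KO, against 89 of 9350 (0.952%). Both contrasts use the same Smad3KO arrays, so that these counts are not independent. Smad2KO itself was higher than WT by the rule for 56 genes (0.599%) and lower for 119 (1.27%), with the same WT arrays. Mean log2 differences between Smad3KO and Smad2KO were -2.63 for Kcnj11, -1.99 for Slc1a5, -2.24 for Rpgrip1, 2.49 for Ifng, 1.94 for Tbx21 and 1.75 for Gbp2b, similar in sign to those against WT. They were 0.28 for Nt5e, -0.24 for Ctse and -0.21 for Tpd52, where Smad2KO differed from WT in the same direction as Smad3KO.

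Ribosomal RNA control signals differed between arrays. The 18S ribosomal RNA control probe sets read 2614 to 4020 on the untreated WT array, 70.7 to 184 on the TGF-b treated WT array and 716 to 2544 on the Smad3KO arrays. Ratios of 3' to 5' probe sets for actin (1.12 to 1.19) and Gapdh (0.808 to 0.835) were close on the 4 arrays. The part of the ribosomal signal in the gene differences was not tested.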

How the data were processed

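The authors deposited linear intensities per probe set from 1-colour Affymetrix arrays. The submitters' processing notes name GCOS 1.4, and its algorithm and settings are not given in the sources read. The 6 WT, Smad2KO and Smad3KO arrays were scaled to the same 2% trimmed mean, floored at their median and log2 transformed. The platform annotation gave 1 gene symbol to 34945 of 45101 probe sets, several to 932 and none here to 9160, beside 64 controls. The probe set with the highest mean over the 4 arrays stood for its gene. limma 3.58.1 in R 4.3.3 fitted genotype and treatment, with moderation by trend, robust settings and Benjamini-Hochberg adjustment, after a check on simulated data. The number of arrays limits the precision. Figures were drawn with matplotlib 3.10.9.

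Members, lists, tests and alternatives were chosen with earlier results of these data known. Genes named were the 15 called higher and 15 lower with the largest smaller ratio of the 2 pairs, up to 5 per direction by limma p, called genes among the 100 on each side of Smad3, called members of the lists, and always Smad3, Smad2, Smad7, Foxp3, Il2, Ifng, Tbx21 and Gzmb. Other genes serve as examples from the lists or were chosen after their values were seen. The lists of interferon-inducible GTPases and further IFN-g targets, and the count of genes with all 4 signals above the floor, were added after the values were seen.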

Additional observations from a re-analysis of the deposited data

Results flagged for a closer look

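Genes that went past 1.5-fold in opposite directions in the pairs without and with TGF-b numbered 41 of 9350 (0.439%), 16 higher without and lower with TGF-b and 25 the other way. Each rests on 2 pairs of single arrays, and the difference between the pairs was not tested. H2-DMa, a chaperone of MHC class II loading, read 56.8 and 409 on WT arrays and 121 and 106 on Smad3KO arrays, without and with TGF-b. Tagln2, an actin-binding protein, read 2346 and 1497 on WT arrays and 1386 and 2813 on Smad3KO arrays. Egln3, an oxygen-sensing hydroxylase, read 124 and 1195 on WT arrays and 187 and 556 on Smad3KO arrays.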

How the results depend on the processing

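Centring arrays on their median, or scale and floor from the 4 compared arrays, kept the counts by the rule, by limma and near Smad3 within 1.5 times. The rule gave 356 genes higher and 822 lower with a floor at the 25th percentile of signals, 9 and 11 at the 75th percentile, 31 and 50 with a filter at 4 times the floor, 31 and 62 with averaged probe sets, 8 and 15 at 2-fold, 229 and 380 at a lower fold, 224 and 420 in the pair without TGF-b alone and 382 and 551 in the pair with TGF-b alone. It gave 59 lower with scale and floor from all 8 arrays and 70 lower among genes with all 4 signals above the floor. limma gave 60 higher and 52 lower with the 25th percentile floor, 3 and 7 with the 75th, 1 and 3 with no filter, 7 and 11 with a filter at 4 times the floor, 3 and 3 with averaged probe sets, 98 and 122 with only 4 arrays, 0 and 3 with all 8, 0 and 0 with no treatment block, and 1 and 2 without trend and robust settings. It gave 13 higher with quantile normalization and 13 lower with scale and floor from all 8 arrays. Leaving out 1 array gave 2 to 113 higher and 3 to 157 lower. Calls near Smad3 numbered 13 with the 25th percentile floor, 1 with the 75th, 4 with no filter, 2 at 2-fold, 19 at a lower fold, and 4 and 16 with windows of 50 and 200 genes on each side. Apart from the smaller number of genes or arrays that a setting admits, the cause was not tested. With the 25th percentile floor another probe set stood for Dixdc1, which turned to -0.55. Alternatives of scale, floor, filter and probe set were read for a gene where it was tested. Among the 42 named genes called by the rule, 29 were counted as kept. These include Dixdc1, which reversed with the 25th percentile floor and so kept neither call nor direction there. With the 75th percentile floor, 16 named genes gave the same result and 4 a weaker one, and the rest were too dim to be tested. Apart from Dixdc1, each gene counted as kept held its call in the settings that tested it. The other 13 lost it, 9 with averaged probe sets (Rpgrip1, Nt5e, Nrp1, Cux1, Smo, Adpgk, Zbtb20, Ctse and Tpd52), 4 with the 75th percentile floor (Nt5e again at -0.69, Niban1 at 0.73, Xcl1 at 0.55 and Ctsw at -1.94) and Pik3ip1 (-0.55) with scale and floor from all 8 arrays. Arrays were paired by treatment alone, which the rule uses and the limma fit holds as a term. The labels give no replicate numbers for any further pairing.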
